A study of Mus musculus with 2 samples.

Results

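Krt25, Krt27, Krt28, Krt71, Krt72, Krt73 and Tchh were followed cell by cell in the skin epithelium of newborn mice. These genes encode keratins of the inner root sheath and the trichohyalin that binds them. They are 7 of the 56694 genes in the count tables, taken by their symbols, and each symbol stood for 1 gene identifier. The tissue was the epidermis of back skin, taken as whole mounts with its hair follicles at postnatal day 2, dissociated with collagenase and trypsin and read as 2 single-cell libraries, 1 per genotype. The control mice, labelled WT, are described in the study as Gli2 fl/fl littermates without Cre. The Gli2EKO mice were K14Cre tg;Gli2 fl/fl, so that Cre under the keratin 14 promoter deletes floxed Gli2 in keratinocytes that use this promoter. How many mice went into a library was not given in the sources used here. With 1 library per genotype there was no test between genotypes, and every interval given is a 95% interval that covers counting error only.

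The inner root sheath is the rigid tube that moulds the growing hair shaft. It is laid down in concentric layers by cells that leave the hair matrix, harden before the shaft does and are shed higher up in the follicle. Keratins form filaments as pairs of a type I and a type II chain. Krt25, Krt27 and Krt28 are type I chains of this sheath and Krt71, Krt72 and Krt73 are type II chains. Krt72 and Krt73 are known from the cuticle of the sheath. Trichohyalin, encoded by Tchh, is a matrix protein that is citrullinated by peptidylarginine deiminases and cross-linked by transglutaminases around these filaments.

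In GRCm39 the 3 type I genes lie on the minus strand of chromosome 11, Krt25 (ENSMUSG00000035831) at chr11:99206342-99213777, Krt27 (ENSMUSG00000017588) at chr11:99236391-99241930 and Krt28 (ENSMUSG00000055937) at chr11:99255698-99265735, with 8 exons each. The type II genes lie on the minus strand of chromosome 15, Krt71 (ENSMUSG00000051879) at chr15:101642384-101651544, Krt72 (ENSMUSG00000056605) at chr15:101684607-101694963 and Krt73 (ENSMUSG00000063661) at chr15:101701743-101710802, with 9 exons each. Tchh (ENSMUSG00000052415) lies on the plus strand of chromosome 3 at chr3:93349637-93356384 and has 2 exons. The type I block spans 59394 bases and also holds Krt26, and the type II block spans 68419 bases and also holds Krt74. Krt27 shared 11.9% of the 31-base words in the last 500 bases of its transcript with Krt25 or Krt28, and Krt28 shared 8.3% with Krt25 or Krt27, so part of their reads may not be told apart. The other 5 members shared 0.0% with another gene.

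The start regions of 4 members are shown as examples, 2 type I genes (Krt28 and Krt25) and 2 type II genes (Krt71 and Krt72). They run 5′ to 3′ on the strand of the gene, from 220 bases before the annotated start to 20 bases from it, and capitals mark matches to the motifs searched.
Krt28, chr11:99265716-99265955, strand -: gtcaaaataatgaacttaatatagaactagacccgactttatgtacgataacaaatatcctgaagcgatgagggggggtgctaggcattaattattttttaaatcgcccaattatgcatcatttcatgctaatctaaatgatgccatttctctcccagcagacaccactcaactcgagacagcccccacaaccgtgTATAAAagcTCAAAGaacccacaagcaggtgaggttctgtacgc
Krt25, chr11:99213758-99213997, strand -: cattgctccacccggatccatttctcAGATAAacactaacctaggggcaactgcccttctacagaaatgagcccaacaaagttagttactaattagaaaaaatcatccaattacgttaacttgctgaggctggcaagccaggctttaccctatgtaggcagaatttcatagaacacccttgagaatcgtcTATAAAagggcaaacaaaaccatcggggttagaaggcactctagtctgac
Krt71, chr15:101651525-101651764, strand -: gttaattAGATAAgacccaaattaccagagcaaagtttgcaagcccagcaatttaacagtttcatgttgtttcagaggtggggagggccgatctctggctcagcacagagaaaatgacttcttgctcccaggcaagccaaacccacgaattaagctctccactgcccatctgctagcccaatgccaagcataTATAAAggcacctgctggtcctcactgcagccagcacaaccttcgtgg
Krt72, chr15:101694944-101695183, strand -: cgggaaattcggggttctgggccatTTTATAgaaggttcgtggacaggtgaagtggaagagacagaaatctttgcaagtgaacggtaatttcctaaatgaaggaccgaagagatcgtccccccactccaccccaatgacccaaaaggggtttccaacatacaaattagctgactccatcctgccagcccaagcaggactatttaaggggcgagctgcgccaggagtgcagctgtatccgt
The motifs were searched on both strands of the 300 bases around each start, which reach from 250 before to 50 after it. TATAAA, the TATA box, stood on the strand of the gene 20 to 40 bases before the start in 5 members, Krt25, Krt27, Krt28, Krt71 and Krt73, and in 2.38% of the same stretch of 21757 protein-coding genes. Krt72 held it on the opposite strand only, 195 bases before the start. AGATAA, the core of a GATA site, was found in 5 members, Krt25, Krt27, Krt71, Krt73 and Tchh, and in 10.6% of all windows. CTTTGA, the core of a TCF/LEF site, was found in Krt28 and Tchh and in 16.2% of all windows. The GLI core ACCACCC was in 0 of the 7 windows and in 4.5% of all, and the AP-1 motif TGANTCA in 0 and in 7.1%. These letters describe the windows and say nothing about binding.

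A UMI stands for 1 counted RNA molecule. The study's limits on cells were applied, which ask for more than 1000 and fewer than 8000 genes per cell and less than 15% of UMIs from mitochondrial genes. This left 4844 control and 3362 Gli2EKO cells with 67366296 and 46703537 UMIs, medians of 12276 and 12169 UMIs per cell, and 0 barcodes in common. Gli2 itself stood at 84.4 CPM, its UMIs per 1000000 UMIs of the cells counted, in control and 85.1 in Gli2EKO keratinocyte clusters. The assay reads the 3′ end and the deleted part of the gene was not given in the sources used here, so Gli2 does not check the labels. Shares of cells with a UMI were compared after each cell was thinned to 2000 UMIs, which left out 11 control and 19 Gli2EKO shallower cells. CPM here counts molecules and is not divided by transcript length.

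The members were found in few cells, and for Krt25, Krt27, Krt71, Krt72 and Tchh much of the RNA sat in 3 cells of a library. Krt25 had 13249 UMIs in the control library, 197 CPM (193 to 200). After thinning it was present in 8.42% of control cells (7.65 to 9.24) and in 4.73% of Gli2EKO cells (4.03 to 5.50). The 3 highest control cells held 1725, 1217 and 697 UMIs, 27.5% of the library's Krt25. In the Gli2EKO library Krt25 reached 225 CPM (221 to 229) and the 3 highest cells, with 4180, 1464 and 825 UMIs, held 61.6%. Without the top 3 cells of each library the level was 143 CPM in control and 86.6 in Gli2EKO.

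Krt27, encoded between Krt25 and Krt28, was lower than Krt25 in both libraries. It stood at 49.5 CPM (47.9 to 51.2) in control and 68.0 (65.7 to 70.4) in Gli2EKO, and at 38.2 and 34.3 without the top 3 cells. It was present in 4.63% and 2.75% of thinned cells, and its highest cells held 408 and 931 UMIs. Its top 3 cells held 22.9% of its UMIs in control and 49.7% in Gli2EKO. Krt28 was the most evenly spread type I gene. It was present in 10.3% of thinned control cells, the highest share of the 7 genes, and its top 3 cells, with 232, 151 and 105 UMIs, held 6.67% of its UMIs. Its level was 109 CPM (106 to 111) in control against 58.6 (56.4 to 60.8) in Gli2EKO, and 102 against 52.2 without the top 3 cells. Krt28 was present in 4.85% of thinned Gli2EKO cells, and 214 control against 68 Gli2EKO cells held at least 10 UMIs of it.

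Among the type II genes, Krt71 followed the steep pattern of Krt25. Its level was 130 CPM in control and 172 in Gli2EKO, and 92.8 and 53.4 without the top 3 cells. The top 3 held 961, 957 and 593 UMIs in control and 3770, 1043 and 732 in Gli2EKO, which is 28.7% and 69.0% of all Krt71. The same 3 cells of each library were in the top 3 for Krt25 and for Krt71. Krt71 was present in 5.32% of thinned control and 3.14% of thinned Gli2EKO cells.

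Krt73 was flatter. Its highest cells held 116, 110 and 90 UMIs in control and 158, 154 and 97 in Gli2EKO, 11.2% and 16.4% of its UMIs, and 0 of these cells were in the top 3 for Krt25. The level was 41.9 CPM in control and 53.5 in Gli2EKO, and 37.2 and 44.9 without the top 3. It was present in 2.48% and 2.66% of thinned cells, and 67 control and 52 Gli2EKO cells held at least 10 UMIs, a ratio of shares of 1.12 (0.763 to 1.63). Krt72, the other cuticle keratin, was almost absent. It had 211 UMIs in the control library, 3.13 CPM (2.72 to 3.58), of which 3 cells with 81, 60 and 23 UMIs held 77.7%. In the Gli2EKO library it had 34 UMIs, 0.728 CPM (0.504 to 1.02), with 18 in 1 cell and 1 UMI in each of the others.

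Tchh had the highest single-cell value, and of the 7 genes it was the one most above control in the Gli2EKO library. It had 5775 UMIs in control, 85.7 CPM, with 680, 643 and 501 in the top 3 cells. The Gli2EKO library held 12954 UMIs, 277 CPM, with 6435, 2000 and 996 in the top 3, which is 72.8% of its Tchh. Without the top 3 cells the level was 58.7 CPM in control and 75.7 in Gli2EKO. It was present in 5.81% of thinned control and 5.09% of thinned Gli2EKO cells, but also in 4.25% and 4.13% of thinned cells of the immune, endothelial, fibroblast and melanocyte clusters. These cells should lack Tchh, so its share over the whole library lay close to background.

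**Figure D1:**
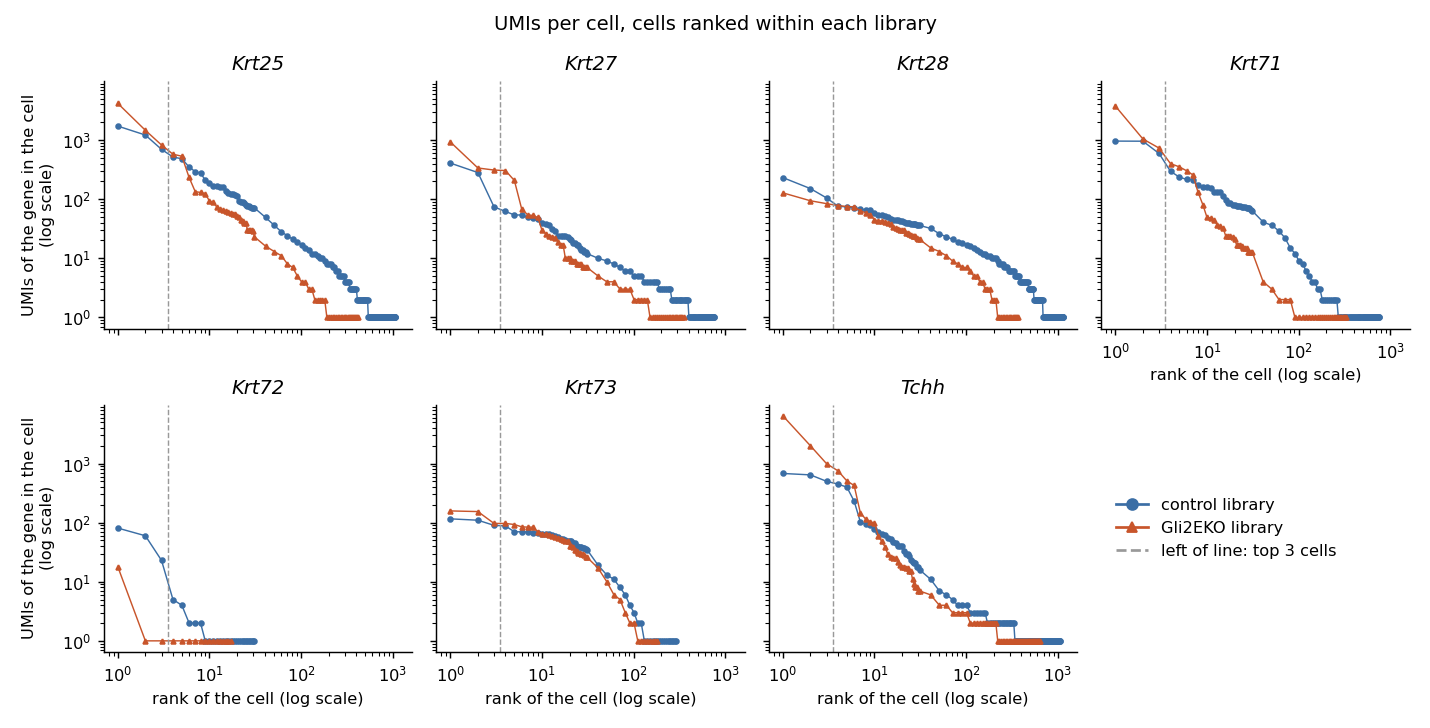
UMIs per cell of each gene on a log scale against the rank of the cell within its library, also on a log scale, with control cells as blue circles and Gli2EKO cells as orange triangles. Left of the dashed line, the highest Gli2EKO cell held 4180 Krt25, 3770 Krt71 and 6435 Tchh UMIs against 1725, 961 and 680 in control. The libraries hold 4844 and 3362 cells, so points at the same rank are not compared between them.

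The cells at the top carried several members at once. The highest control cell held 1725 Krt25, 408 Krt27, 32 Krt28, 961 Krt71 and 643 Tchh UMIs but 0 of Krt73, and members made up 23.6% of its 15976 UMIs. The highest Gli2EKO cell held 4180 Krt25, 931 Krt27, 94 Krt28, 3770 Krt71, 6 Krt73 and 2000 Tchh UMIs, 24.7% of its 44483. The 2 cells thus resembled each other in the share that members took, and differed in size. The cell with 6435 Tchh UMIs had 154 of Krt73 and 73329 UMIs in all, and it was among the 269 Gli2EKO cells with the top 8% of doublet scores.

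Between the libraries, the summed level gave opposite directions with and without these cells. The 7 genes together had a log2 ratio of CPM, Gli2EKO over control, of 0.47 (0.45 to 0.49) over all cells and -0.44 (-0.47 to -0.42) without the top 3 cells of each gene. The ratio was 0.19 (0.16 to 0.23) for Krt25, 0.46 (0.39 to 0.53) for Krt27 and 0.40 (0.36 to 0.45) for Krt71 over all cells. Without the top 3 cells of each library it was -0.72 (-0.77 to -0.67), -0.15 (-0.24 to -0.06) and -0.80 (-0.87 to -0.73). The thinned shares of these genes had Gli2EKO to control ratios of 0.561 (0.464 to 0.676), 0.594 (0.461 to 0.760) and 0.591 (0.466 to 0.744), the opposite side from the CPM over all cells, so no order of the libraries is read from the shares. Krt28 was lower in the Gli2EKO library by each of these measures, with a log2 ratio of -0.89 (-0.96 to -0.83), -0.96 (-1.03 to -0.89) without the top 3 cells, and a ratio of thinned shares of 0.470 (0.391 to 0.563). Over all cells the matrix list summed to 339 CPM in control and 194 in Gli2EKO, with 5 of 7 genes lower and 0 higher, and the suprabasal list to 5511 and 9051 CPM, with 3 of 9 higher and 2 lower. Of 9 genes of dissociation stress, 3 were higher (Hspa1a, Hspa1b and Dnajb1) and 0 lower. These counts use the 1.5-fold limit given below, past which 7.60% of 17975 genes were lower and 4.28% higher. The matrix-like cluster 0, described below, held 9.04% of control and 5.44% of Gli2EKO cells. The part of these differences in the member levels over all cells was not tested. In the immune, endothelial, fibroblast and melanocyte clusters, which should lack these genes, the thinned shares were lower in Gli2EKO too, with 3.41% and 2.39% for Krt25, 1.52% and 0.218% for Krt27, 1.90% and 1.63% for Krt71 and 2.81% and 1.09% for Krt28 in control and Gli2EKO. The median depths of these clusters were 11015 and 10146 UMIs, and the part of free RNA in the shares was not tested.

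Krt73 differed little. Its log2 ratio was 0.35 (0.27 to 0.43), or 0.27 (0.18 to 0.35) without the top 3 cells, and the interval of its share ratio, 1.07 (0.806 to 1.42), held 1. Tchh was higher by a log2 ratio of 1.69 (1.65 to 1.74), of which 0.37 (0.30 to 0.43) was left without the top 3 cells and 0.74 (0.69 to 0.80) without marked doublets, while its share ratio was 0.875 (0.719 to 1.06). Krt72 was lower by -2.11 (-2.67 to -1.58), or -1.22 (-2.19 to -0.33) without the top 3 cells. The value over all cells rests on 3 control cells and 1 Gli2EKO cell, and the value without the top 3 cells on 47 and 14 UMIs.

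**Figure D2:**
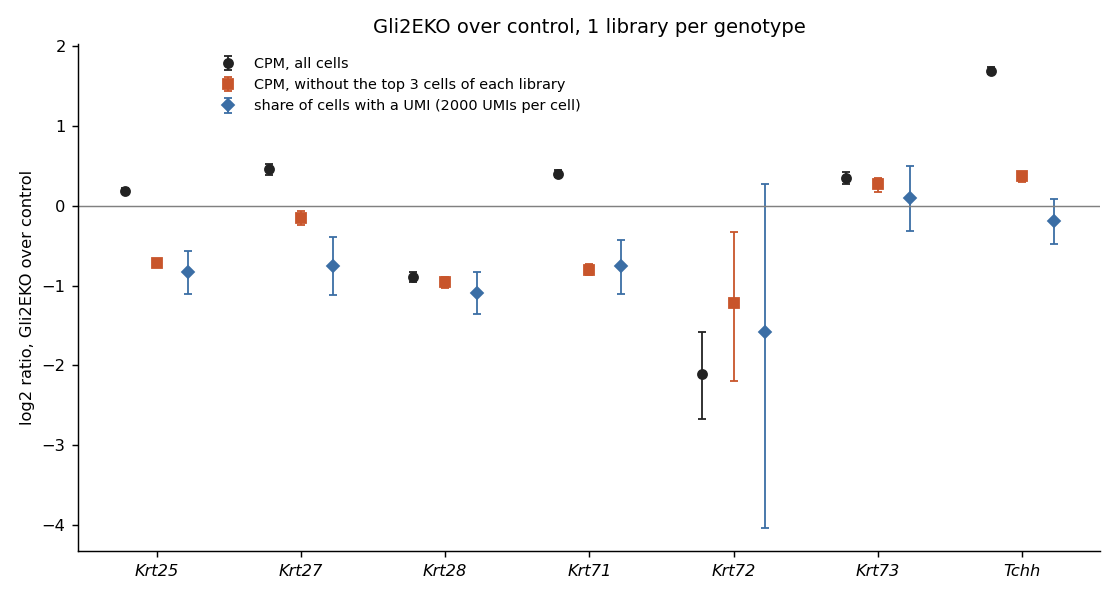
Log2 ratio of the Gli2EKO over the control library for each gene, from the CPM over all cells (black circles), the CPM without the top 3 cells of each library (orange squares) and the thinned share of cells with a UMI (blue diamonds), with 95% counting intervals. Krt25, Krt27 and Krt71 lie above 0 over all cells and below 0 by the other measures, Krt28 lies below 0 in each and Krt73 near 0.

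A gene was counted as lower or higher where it had at least 50 UMIs in both libraries together and its ratio passed 1.5-fold. Over all cells, 2 of the 7 members were lower in Gli2EKO, Krt28 and Krt72, against 7.60% of 17975 genes, and 1, Tchh, was higher, against 4.28%. Without the top 3 cells of every gene, 4 members were lower, Krt25, Krt28, Krt71 and Krt72, against 8.58% of 17240 genes, and 0 were higher, against 3.29%. The median log2 ratio of all genes was -0.11, and -0.13 without the top 3 cells. Dependence on 3 cells was rare among the 17240 genes that kept 50 UMIs, since the log2 ratio of 206 (1.19%) moved by over 0.5 when their top 3 cells were left out. Genes that fell under 50 UMIs without these cells were not counted, so the share over all 17975 genes may be higher. The top 3 cells of both libraries held a median of 2.58% of a gene's UMIs, against 75.1% for Krt72, 60.1% for Tchh, 48.0% for Krt71, 42.6% for Krt25, 36.0% for Krt27, 13.6% for Krt73 and 7.89% for Krt28.

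Cells with several members were a small part of both libraries. At 2000 UMIs per cell, 1140 of 4833 control cells (23.6%) and 523 of 3343 Gli2EKO cells (15.6%) held a UMI of at least 1 member. At least 3 members were found in 164 control cells (3.39%, 2.90 to 3.94) and 64 Gli2EKO cells (1.91%, 1.48 to 2.44), a ratio of 0.564 (0.416 to 0.758). The interval held 1 when 2 UMIs were required for a member, with 0.760 (0.508 to 1.12), and for at least 5 members, with 0.602 (0.306 to 1.13), so no order of the libraries is read from these shares either. All 7 members were found in 2 control and 0 Gli2EKO cells. In the immune, endothelial, fibroblast and melanocyte clusters at least 3 members were found in 7 of 1318 control cells (0.531%) and 2 of 919 Gli2EKO cells (0.218%), below the shares of the whole libraries. Of the cells with at least 3 members, 18 control and 6 Gli2EKO cells were marked as doublets.

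Which members met in a cell differed from gene to gene. Of control cells with at least 10 UMIs of Krt71, 80.4% held at least 10 of Krt25, 57.7% of Krt28 and 23.7% of Tchh, and the Gli2EKO shares were 79.4%, 58.8% and 29.4%. Krt71, the type II chain with the most UMIs in control, thus met Krt25 at a like rate in both libraries. Of Krt73-high cells, 83.6% in control and 65.4% in Gli2EKO were Krt28-high, 73.1% and 69.2% were Krt25-high, 37.3% and 30.8% were Krt71-high, and 5.97% and 13.5% were Tchh-high.

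The share of Krt73-high cells without any Krt71 UMI was 13 of 67 in control (19.4%, 10.8 to 30.9) and 28 of 52 in Gli2EKO (53.8%, 39.5 to 67.8). At 10 or more Krt71 UMIs the shares were 37.3% and 30.8%, and 43.3% and 15.4% of the Krt73-high cells held 1 to 9. With 1 library per genotype this difference was not tested. Krt71 stood at 13.9 CPM in control and 7.10 in Gli2EKO in the immune, endothelial, fibroblast and melanocyte clusters, and the part of free RNA in these shares was not tested. Of the 28 Gli2EKO cells, 17 held Krt28, 16 held Krt25 and 4 were marked as doublets, and of the 13 control cells 12, 11 and 1. By cluster, described below, 13 of the Gli2EKO cells lay in cluster 7 and 11 in cluster 3, against 6 and 2 of the 13 control cells. Tchh-high cells without a Krt71 UMI were 14 of 46 in control (30.4%, 17.7 to 45.8) and 12 of 26 in Gli2EKO (46.2%, 26.6 to 66.6), with 6 and 10 of them in cluster 3. Krt28-high cells without Krt71 were 99 of 214 in control, 71 of them in cluster 0, and 33 of 68 in Gli2EKO.

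The 3 control cells with the most Krt72 also held Krt73, Krt28 and Krt27. The 3 control cells with 81, 60 and 23 Krt72 UMIs held 116, 110 and 35 of Krt73 and 232, 151 and 66 of Krt28 and 54, 38 and 11 of Krt27, but only 1, 4 and 0 of Krt25, 4, 9 and 2 of Krt71 and 7, 2 and 0 of Tchh. The 2 cells with the most Krt72 were thus the 2 with the most Krt28 and Krt73 in the control library, and they were nearly free of Krt25. The Gli2EKO cell with 18 Krt72 UMIs held 65 of Krt73 and 25 of Tchh with 0 of Krt28. It was marked as a doublet, as was the control cell with 23. The control cell with 5 Krt72 UMIs held 0 of Krt73. Of the 13 control cells with Krt72 at 2000 UMIs, 53.8% held Krt28, 46.2% Tchh, 38.5% each Krt73 and Krt71, and 30.8% each Krt25 and Krt27.

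**Figure D3:**
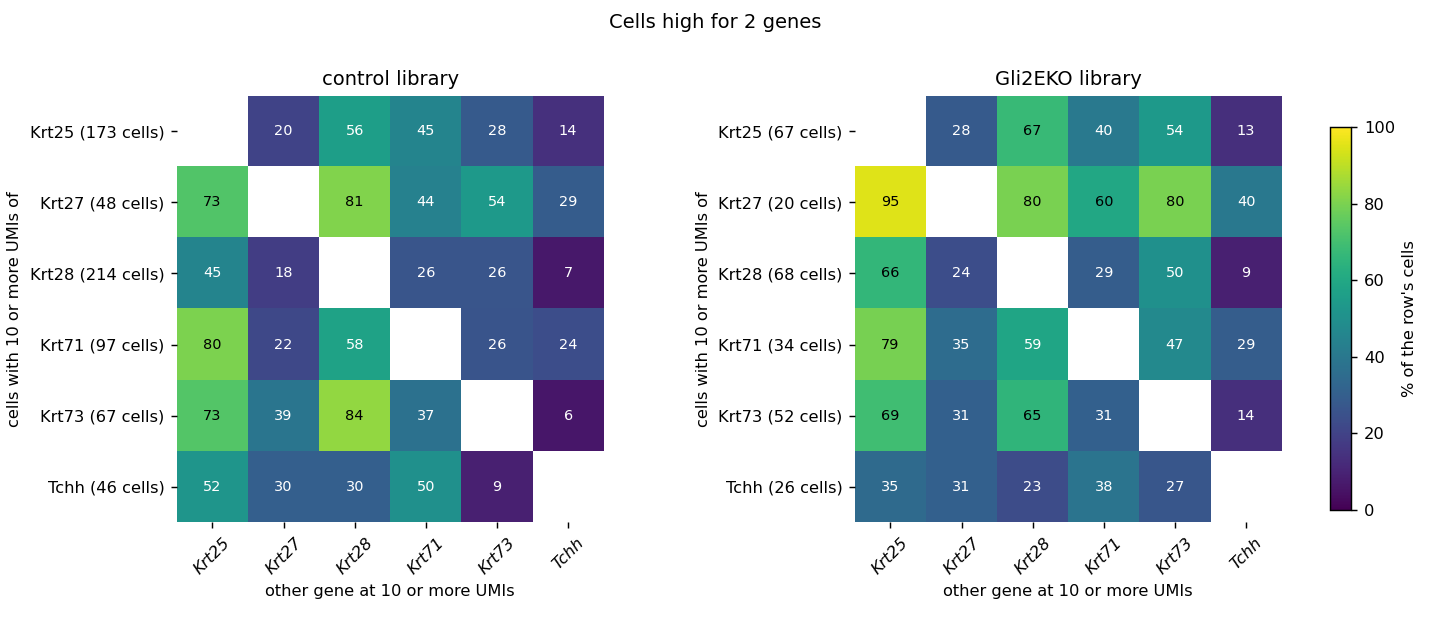
Of the cells with at least 10 UMIs of the gene in the row, the percentage with at least 10 UMIs of the gene in the column, by library, with the number of cells beside each row name and brighter colours for higher shares. Krt71-high cells were Krt25-high in 80.4% of control and 79.4% of Gli2EKO cells, and Krt73-high cells were Krt28-high in 83.6% and 65.4%.

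The cells were clustered without the 7 genes, and clusters were described by marker lists. Cluster 0 was matrix-like, with Msx1, Shh and Cldn10 among its leading genes. Cluster 7 was left unnamed and is called by its leading genes, Krt71 and Krt25, which had no part in forming it. Cluster 9 was led by S100a3 and Krt35, genes of the hair shaft, and stayed unnamed, and cluster 3 was suprabasal-like, led by Lor, Krt10 and Krt1. Cluster 7 held 339 control cells (7.0%) and 135 Gli2EKO cells (4.02%), a ratio of 0.574 (0.466 to 0.702), with a median of 7769 UMIs. It held 62.5% of the control and 83% of the Gli2EKO UMIs of the 7 genes. Clustered without integration of the libraries, it held 63.4% and 64.4%, so the gap between the libraries depended on this step.

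Within cluster 7 the members were present in like shares of cells in both libraries, with Krt73 as the exception and Krt72 in too few cells to compare (5 of 338 and 0 of 129). Krt25 was in 45% of thinned cells in each library, Krt28 in 45.3% of control and 43.4% of Gli2EKO cells, Krt71 in 30.8% and 26.4%, Krt27 in 16.0% and 19.4%, and Tchh in 16.0% and 16.3%. Krt73 was in 16.9% of control cells (13 to 21.3) and 32.6% of Gli2EKO cells (24.6 to 41.4). The Krt73 level was 445 CPM in control and 858 in Gli2EKO, and 363 and 687 without the top 3 cells. The make-up of cluster 7 differed between the libraries. On the axis described below, bin 1 held 78 of its 339 control and 23 of its 135 Gli2EKO cells, and bin 10 held 56 and 35. In bins 8 to 10 of that axis the Krt73 shares, 19.2% (14.1 to 25.3) and 28.6% (20.7 to 37.6), had overlapping intervals. The part of this make-up in the shares and levels of cluster 7 was not tested.

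Levels of the other members in cluster 7 ran from equal to several fold higher in Gli2EKO. Krt28 stood at 834 CPM in control and 829 in Gli2EKO. Krt25 stood at 2515 and 6069 CPM, but at 1536 and 1998 without the top 3 cells, and Krt71 at 1901 and 4961, but at 1229 and 1443. For both genes most of the gap was carried by 3 cells per library. Krt27 stood at 451 and 1564 CPM, with 244 and 590.2 without the top 3 cells. Tchh stood at 987 and 7659 CPM, with 489.7 and 1554 without the top 3. Krt72 went the other way, with 48.8 CPM in control and 2.65 in Gli2EKO, but 3 control cells held most of its UMIs there, and without the top 3 cells it stood at 3.37 and 0.730 CPM, a log2 ratio of -2.21 with an interval of -7.62 to 0.55. Past 1.5-fold, 5 members were higher in Gli2EKO, against 4.74% of 8978 genes, and 1, Krt72, was lower, against 13.3%. Krt25 and Krt71 fell short of 1.5-fold without the top 3 cells, with log2 ratios of 0.38 and 0.23.

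Markers of other cell types moved within cluster 7 as well. The suprabasal list summed to 442 CPM in control and 3349 in Gli2EKO cells of cluster 7, with 5 of 7 tested genes higher (Krt1, Krt10, Krtdap, Sbsn and Calm4) and 2 lower (Lor and Flg). The companion layer list, of the layer next to the sheath, summed to 1855 and 2989 CPM, with 3 of 4 tested genes higher (Krt79, Krt17 and Krt16) and 0 lower. The cell division list was lower, 3153 against 1947 CPM, with 4 of 8 genes lower and 0 higher, as was the matrix list, 732 against 524 CPM. Of all genes tested in the cluster, 4.74% were higher and 13.3% lower. The part of these differences in the member levels was not tested.

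The libraries compared differently in other clusters, though the difference between clusters was not tested. In matrix-like cluster 0, with 438 control and 183 Gli2EKO cells, Krt25, Krt27 and Krt28 were lower in Gli2EKO. Krt28 led there with 334 CPM in control and 209 in Gli2EKO, followed by Krt25 with 195 and 91.2 and Krt27 with 114 and 82.4. Krt71 stood at 31.6 and 7.82 CPM (15.9 and 6.30 without the top 3 cells), Tchh at 28.7 and 19.2 (17.8 and 16.5 without the top 3, a log2 ratio of -0.11 with an interval of -0.61 to 0.37) and Krt73 at 8.20 and 0.978 (2.20 and 0 without the top 3). Cluster 0 was thus a site of the type I genes, with little of the type II genes or of Tchh. In cluster 9, Krt73 stood at 132 CPM in control and 609.8 in Gli2EKO and Krt28 at 197 and 529, over 221 and 86 cells. Without the top 3 cells of the cluster these levels were 75.6 and 229.9 for Krt73 and 167 and 265 for Krt28. Tchh lay the other way in cluster 9, at 71.6 and 17.1 CPM, where its Gli2EKO level rested on 14 UMIs. Without the top 3 cells it stood at 41.7 and 4.18 CPM. Krt71 stood at 46.5 and 31.7 CPM, a log2 ratio of -0.55 with an interval of -1.23 to 0.07. Its levels without the top 3 cells were 23.2 and 7.04 CPM. In suprabasal-like cluster 3, Krt73 stood at 93 and 65.7 CPM and Tchh at 92.3 and 81.2. The levels without the top 3 cells were 55.9 and 35.3 CPM for Krt73 and 55.4 and 52.8 for Tchh, so that Krt73 was lower in Gli2EKO there and Tchh was close in the 2 libraries. Krt25 stood at 199.8 and 37.2 CPM in cluster 3, where 1 control cell held 517 of its UMIs, and at 55.4 and 20.9 CPM without the top 3 cells.

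In the immune, endothelial, fibroblast and melanocyte clusters, Tchh stood at 23.4 CPM in control and 19.0 in Gli2EKO, Krt25 at 18.6 and 13.3, Krt28 at 17.5 and 7.84, Krt71 at 13.9 and 7.10, Krt27 at 8.48 and 3.97 and Krt73 at 4.18 and 6.46. These cells should lack the members, and their levels serve as background. The Krt71, Krt73 and Tchh levels of cluster 0 without the top 3 cells lay near or below them in both libraries, so no difference between the libraries is read from these 3 genes there. Of the background cells, 30.8% of the immune, 35.4% of the endothelial, 14% of the fibroblast and 19.7% of the melanocyte cells were marked as doublets, and the part of doublets in the background was not tested.

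**Figure D4:**
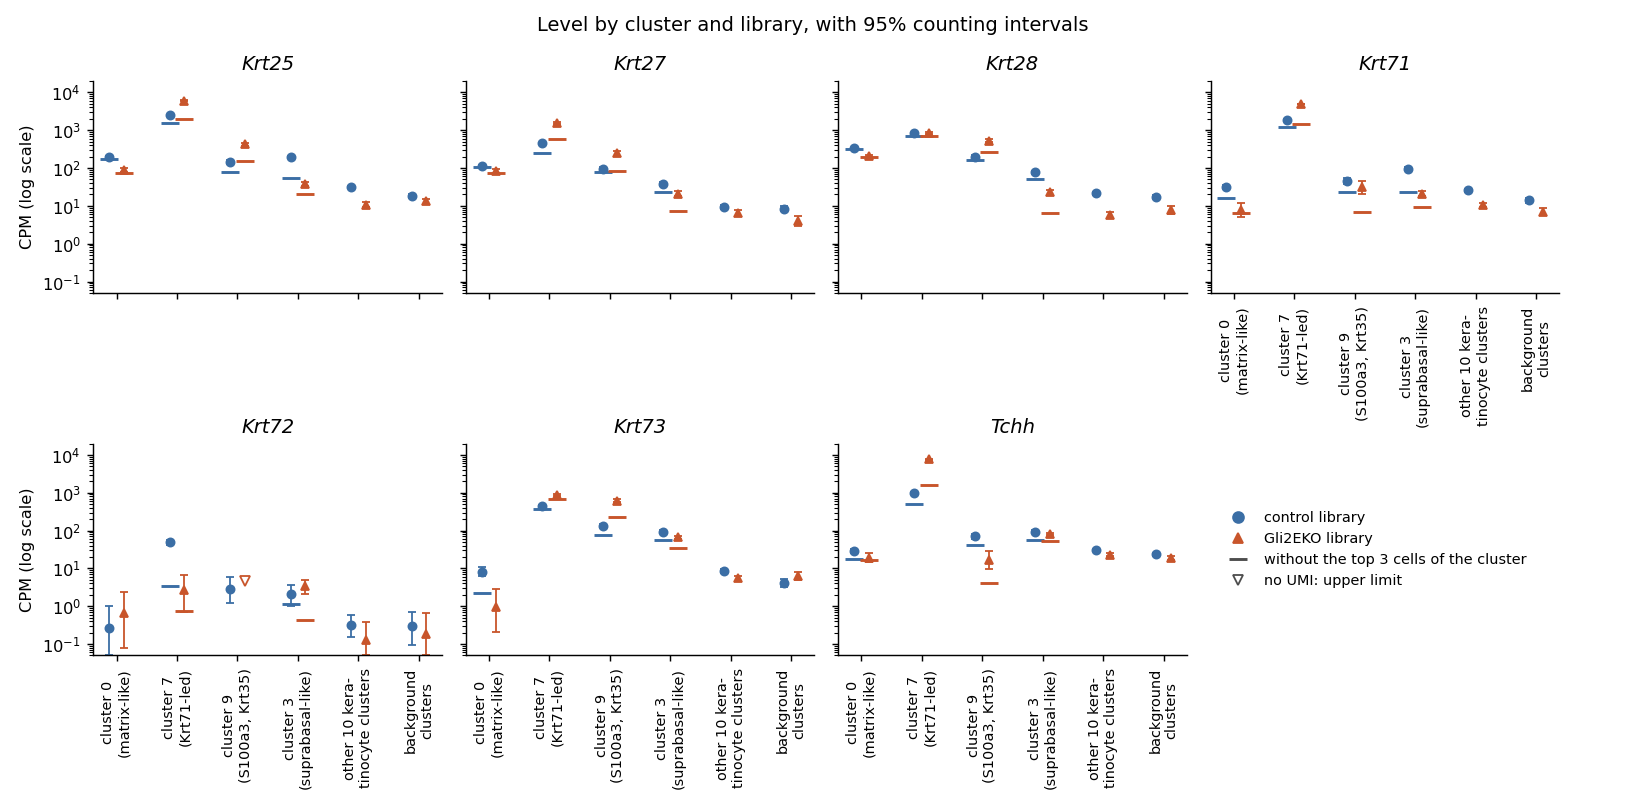
Level of each gene in CPM on a log scale by cluster and library, with control as blue circles, Gli2EKO as orange triangles, 95% counting intervals, and short lines for the level without the top 3 cells of the cluster. Every gene but Krt72 in Gli2EKO was highest in cluster 7, where Krt28 stood at 834 and 829 CPM, and the short lines of Krt25 and Krt71 lie closer together than their points.

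Cells were next chosen without the gene that was measured. Among cells with at least 2 other members at 2000 UMIs, Krt28 stood at 962 CPM in 232 control cells and 952 in 89 Gli2EKO cells, a log2 ratio of -0.01 (-0.10 to 0.07). Krt25 had a log2 ratio of 1.02 (0.98 to 1.06), or 0.12 (0.06 to 0.19) without the top 3 cells, and Krt71 one of 1.30 (1.25 to 1.34), or 0.10 (0.02 to 0.17). With at least 4 other members, Krt28 was lower in Gli2EKO by a log2 ratio of -1.07 (-1.22 to -0.92). Among cells with at least 2 other members, Krt27, Krt73 and Tchh stayed higher in Gli2EKO without the top 3 cells, with log2 ratios of 0.94 (0.82 to 1.05), 0.94 (0.84 to 1.04) and 1.47 (1.38 to 1.55). With at least 4 other members the ratio of Krt73 was -0.02 (-0.16 to 0.13). The ratio of Tchh, 2.82 over all cells with at least 2 other members, was 1.72 without marked doublets. In cells with at least 3 members of any kind, 5 members were higher in Gli2EKO, against 4.42% of 8219 genes, and 1 was lower, against 11.7%. These cells were chosen by the same genes, so the counts are a description from which nothing is read.

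The order of onset was read along an axis that did not use the members. The first principal component of the cells of clusters 0 and 7 (777 control and 318 Gli2EKO cells) was cut into 10 bins, with Bnc2 and Lef1 among the genes at its start and Lgals7, S100a16 and Sfn at its far end. The first bins held shallow cells with many mitochondrial UMIs, with medians of 6879 UMIs and 8.81% in control bin 1, where 78 of 84 cells came from cluster 7. The far end was mixed, since companion layer genes summed to 6076 CPM in control bin 10 and suprabasal genes to 6436 CPM in Gli2EKO bin 10, against 166 and 166 in bin 1. The axis is therefore an order of cells and not a measured time.

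By the share of cells with a UMI, Krt28 came first or level with Krt27. In the control library, the first bin in which a gene reached 50% of its highest thinned share was bin 2 for Krt28, 3 for Krt27, 4 for Krt25, 8 for Krt73 and 9 for Krt71, Tchh and Krt72. In the Gli2EKO library it was bin 4 for Krt28 and Krt27, 6 for Krt25, 9 for Krt73 and Krt71 and 10 for Tchh. Bins with under 20 cells at 2000 UMIs were passed over, which left out Gli2EKO bins 2 and 3 with 19 cells each. With bin 3 counted, Krt28 (36.8%) and Krt27 (15.8%) would both stand at bin 3. Krt72 was in 0 thinned cells of this axis in Gli2EKO and has no onset by share there. In control its highest share was 4.35%, against 63.8% for Krt71, so the place of Krt72 rests on few cells. By this measure the type I genes preceded Krt73, Krt71 and Tchh in both libraries, and the libraries can be compared by order only, since the bins held as few as 21 Gli2EKO cells.

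Across a cut between bins 7 and 8, Krt71 had the sharpest step. The cut lies where Krt71 reached 10% of its highest CPM in control, so it favours Krt71 over genes that rise earlier. Krt71 was present in 4.23% of control cells of bins 1 to 7 and 47.1% of bins 8 to 10, and in 1.04% and 30.3% of Gli2EKO cells. Krt73 went from 3.53% to 19.2% in control and from 4.66% to 28.6% in Gli2EKO, and Tchh from 5.29% to 20.7% and from 6.22% to 15.1%. Krt28 went from 40.2% to 51.4% in control and from 31.6% to 44.5% in Gli2EKO, a small step at this cut. In control its share had risen earlier, from 13.1% in bin 1 to 37.9% in bin 2. Krt25 went from 24.2% to 52.9% and from 17.6% to 41.2%, and Krt27 from 14.8% to 21.6% and from 12.4% to 19.3%. Bins 8 to 10 held 26.9% of the control axis cells (23.8 to 30.2) and 37.4% of the Gli2EKO axis cells (32.1 to 43.0).

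By CPM the onsets at 50% lay in a later bin than by share or in the same bin, Krt72 in Gli2EKO aside. The bin was the same for Krt72 in control and for Krt73 and Tchh in Gli2EKO. In control, 50% of the highest CPM was reached in bin 8 for Krt28, bin 9 for Krt73 and Krt72, and bin 10 for Krt25, Krt27, Krt71 and Tchh. The level of 10% of the highest CPM was reached in bin 1 for Krt28, 3 for Krt27, 6 for Krt73, 8 for Krt25 and Krt71 and 9 for Tchh and Krt72. This last order depended on the binning and on the cells. With 20 bins Krt27 reached that level at 80% of the axis instead of 30%, level with Krt25 and Krt71, but at 10%, level with Krt28, along the first diffusion component, and Krt28 in Gli2EKO at 70% instead of 20%. Krt73 in control reached it at 80% instead of 60% along the first diffusion component or without marked doublets, and Krt25 at 60% instead of 80% without the top 3 cells. Without the top 3 cells, 50% was reached in bin 8 for Krt28 and Krt73 and in bin 9 for the others. In Gli2EKO, 50% of the highest CPM was reached in bin 9 for Krt28 and Krt73 and bin 10 for Krt25, Krt27, Krt71 and Tchh, so that Krt73 stood before Krt25 and Krt27 by CPM and after them by share. By 10% of the highest share Krt25, Krt28 and Tchh were all in bin 1 of both libraries. The place of Krt25, Krt27, Krt73 and Tchh thus depended on the measure, and that of Krt28 in Gli2EKO on the bins.

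**Figure D5:**
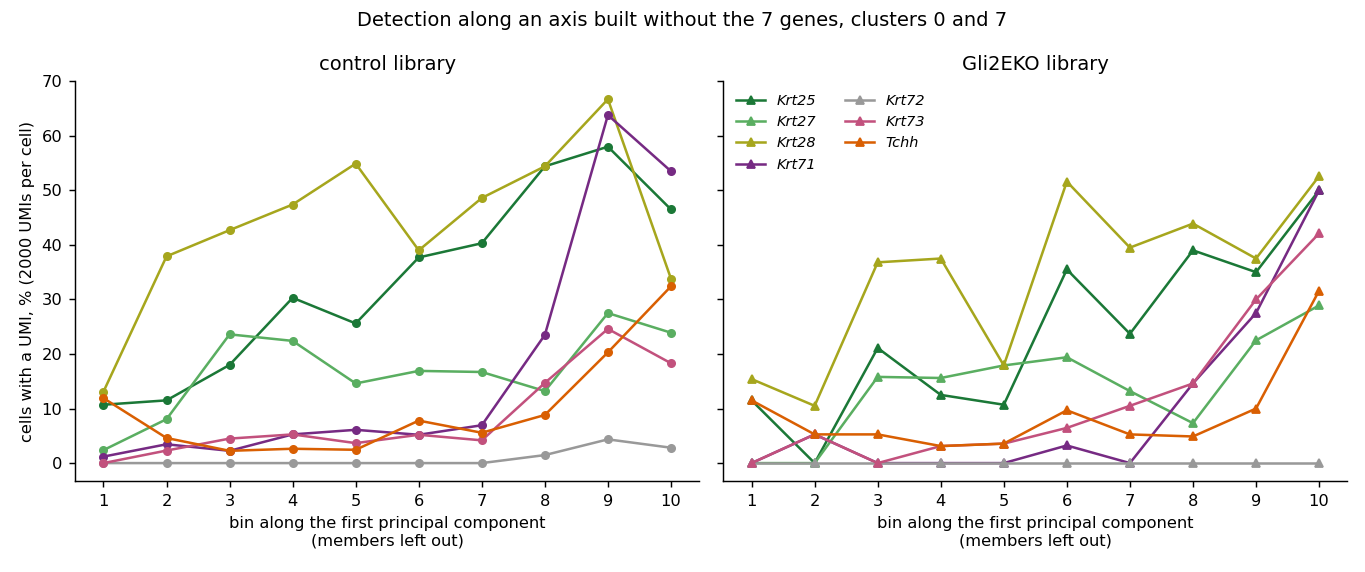
Percentage of cells with a UMI of each gene, at 2000 UMIs per cell, in 10 bins along the first principal component of clusters 0 and 7, which was built without the 7 genes, in the control (left) and Gli2EKO (right) library. Krt28, Krt25 and Krt27 reach 50% of their highest share by bin 4 in control and bin 6 in Gli2EKO, whereas Krt71 stays under 10% up to bin 7 and reaches 63.8% in control and 50% in Gli2EKO.

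All cells were also ordered by the UMIs of the other 6 members per 10000 UMIs of the cell, an order that covers all cells. Tchh in control cells stood at 27.2 CPM where no other member was found, 46.3 CPM where the others made up 3 to 10 per 10000 and 93 CPM at 30 to 100, and then at 1938 CPM at 100 to 300 (33 cells) and 19388 CPM over 300 (9 cells). Krt71 climbed from 9.96 CPM without other members to 73.6 at 3 to 10, 1131 at 30 to 100 and 26265 over 300 (7 cells). Krt25 climbed likewise, from 11.3 to 169, 2516 and 42149 CPM. Krt28 and Krt73 did not keep climbing. Krt28 went from 17.5 CPM to 257, 1026 and 2739.7 at 100 to 300, and stood at 1879 over 300 (11 cells), and Krt73 from 2.71 to 12.3, 764 and 1687, and at 1047 over 300.

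In the Gli2EKO library Krt28 again levelled off and Krt71 kept climbing, with fewer cells in the upper classes. Krt28 stood at 6.48 CPM without other members, 201 at 3 to 10, 1283 at 30 to 100, 1787 at 100 to 300 (5 cells) and 1131 over 300 (8 cells). Krt71 went from 6.59 to 48.3, 415, 3946 and 23402 CPM. Tchh stood at 24.7 CPM without other members, 56.5 at 3 to 10, 367 at 30 to 100, 31919.5 at 100 to 300 (11 cells) and 19655 over 300 (5 cells). In the class of 100 to 300, 6435 of its 7589 UMIs came from the 1 cell marked as a doublet that is named above. Krt73 stood at 11.8 CPM in the 1990 Gli2EKO cells without another member, against 2.71 in 2146 such control cells, and at 1871 CPM against 764 in the class of 30 to 100. Over the whole libraries, 52 Gli2EKO cells held 88.4% of all Krt73 UMIs and 67 control cells 85.4%. Its background, in the immune, endothelial, fibroblast and melanocyte clusters, was 6.46 and 4.18 CPM. The part of a few cells or of background in these Krt73 levels was not tested.

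Other genes known from the inner root sheath were read in the same clusters, from a list of 31 genes that includes enzymes acting on trichohyalin (Padi1, Padi3, Tgm1 and Tgm3), regulators (Gata3, Cux1, Dlx3 and Foxn1) and junction proteins (Dsc1, Evpl and Ppl). Of 24 with at least 50 UMIs in clusters 0 and 7, 16 were higher in cluster 7 than in cluster 0 in both libraries, with a counting interval of the ratio above 1, 3 were lower (Msx2, Hoxc13 and Bmp4) and 5 were neither. Of all 11289 genes with as many UMIs, 20% were higher and 15.4% lower by the same rule. The list does not single out cluster 7, since the mean over its genes of log2(CPM + 10), less the mean of the keratinocyte clusters, was 0.984 in cluster 9, 0.820 in cluster 7 and 0.0502 in cluster 0 over both libraries, and of the lists scored for naming the matrix list stood highest in cluster 7. The median log2 ratio of cluster 7 over cluster 0 was 1.08 in each library, against 0.12 and 0.02 over 11289 genes. Gata3, a regulator of inner root sheath fate, stood at 292 CPM in cluster 7 and 113 in cluster 0 of the control library, and at 311 and 96.5 in Gli2EKO. Foxn1 stood at 70.1 and 6.02 CPM in control and at 92.7 and 3.26 in Gli2EKO. Of the 7 matrix genes, 0 were higher and 6 lower in cluster 7. Of 5 companion layer genes, 3 were higher and 0 lower, with medians of 1.69 and 2.31, above those of the inner root sheath list.

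Between the libraries, 6 of 21 genes of this list with enough UMIs in cluster 7 were higher in Gli2EKO (Padi3, Tgm1, Ctsc, Crnn, Dsc1 and Lgals7) and 1, Msx2, was lower, against 4.74% and 13.3% of all genes tested in the cluster. The suprabasal list, given above, was higher in the same cells, 442 against 3349 CPM, and its part in this count was not tested. Padi3, a deiminase of trichohyalin, stood at 18.8 CPM in control and 68.2 in Gli2EKO, a log2 ratio of 1.86 (1.4 to 2.32). Ctsc, a lysosomal protease, stood at 103 and 299 CPM, a log2 ratio of 1.54 (1.34 to 1.74). Gata3 was close, with 0.09 (-0.07 to 0.25). Cux1, a homeobox regulator of this sheath, had a log2 ratio of -0.58 (-0.65 to -0.50), just short of 1.5-fold. The median of the list was -0.00 and that of all genes in cluster 7 was -0.15. Over all cells 4 of 29 were lower (Padi4, Dlx3, Msx2 and Cux1) and 4 higher (Krt26, Ctsc, Dsc1 and Lgals7), against 7.60% and 4.28% of all genes.

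Across cells, 14 genes outside the 7 were among the 20 with the highest correlation with the mean of the members in both libraries, out of 13357 genes with UMIs in at least 2% of cells. Prr9, a small proline-rich protein gene, came first in both, with r of 0.51 over 4844 control cells and 0.60 over 3362 Gli2EKO cells. It stood at 824 CPM in cluster 7, 3.85 in cluster 0 and 4.82 as the median of the other keratinocyte clusters. Golga7b had r of 0.46 and 0.44, Dlx3 of 0.43 and 0.47, Hopx of 0.45 and 0.42 and Fbp1 of 0.40 and 0.42. The others were Paqr5, Cux1, Nectin4, Taf13, Dsc1, Myh14, Grhl1, Cldn4 and Cited4, with r from 0.29 to 0.47. Cells of a library share depth and free RNA, and these values describe the libraries only.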

How the data were processed

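The authors ran Cell Ranger 9.0.1 on reads of a 10x 3′ assay of polyadenylated RNA, with GRCm39 as the genome build, and deposited for each library a filtered matrix of raw UMI counts per gene and barcode, without normalization. Everything else was computed from these counts. The study removed doublets with another caller. Here doublets were kept, and the top 8% of Scrublet scores per library (scanpy 1.11.5) were marked. Cells were clustered with Seurat 5.3.0 (R 4.3.3) on 2000 variable genes without the 7 members, 20 principal components and a resolution of 0.5. The libraries were integrated by the Harmony method, written anew and not run from its package. CPM are summed UMIs per 1000000 with exact Poisson intervals, shares have Clopper-Pearson intervals and ratios conditional binomial intervals, at 95%. Free RNA was not removed. Calls past 1.5-fold used genes with at least 50 UMIs, with 0.5 UMIs added. The correlation used log values per 10000 UMIs over cells. On simulated counts with 200 genes changed 2.5-fold between the libraries, 97.0% were recovered and 1.37% of unchanged genes were called. These counts had Poisson error only, without spread between cells or mice, so the values are not error rates of the calls made here. Gene positions and start regions came from a later GENCODE release of GRCm39, matched by identifier for 7 of 7 members.

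The 7 genes, the lists and the settings were chosen with earlier results of these data known, and lists support no direction on their own. Genes named are the members, genes of the stated lists and the genes most like the members. Alternatives were the top 3 cells, doublets, a mitochondrial limit of 10%, thinning to 5000 UMIs or none, 2 UMIs for detection, other member limits, 20 bins, a diffusion component, other clusterings and other limits for calls.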

Additional observations from a re-analysis of the deposited data

Results flagged for a closer look

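The limits on genes and mitochondrial UMIs left out 1482 barcodes of the control and 934 of the Gli2EKO library. Of these, the Gli2EKO barcodes carried Krt25, Krt27, Krt28, Krt71, Krt73 and Tchh above the level of the control barcodes. Over the left-out Gli2EKO barcodes Krt25 stood at 2913 CPM, Krt27 at 938, Krt28 at 150.3, Krt71 at 2415, Krt73 at 135 and Tchh at 1377. Over the left-out control barcodes the levels were 338, 112, 95.5, 289, 44.6 and 314 CPM. One barcode carried most of the Krt25, Krt27, Krt71 and Tchh UMIs but not of Krt28 or Krt73, which had 325 and 293 UMIs over the left-out Gli2EKO barcodes. It had 8162 detected genes, just past the limit of 8000, and 94362 UMIs, of which 14574 were of members: 5555 of Krt25, 1834 of Krt27, 113 of Krt28, 4614 of Krt71, 75 of Krt73 and 2383 of Tchh. The control barcode left out with the most member UMIs held 768, with 641 detected genes.

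The ratios of Krt25, Krt27, Krt71 and Krt73 had opposite signs in matrix-like cluster 0 and in cluster 7. The log2 ratio of CPM, Gli2EKO over control, was -1.10 in cluster 0 and 1.27 in cluster 7 for Krt25, -0.47 and 1.80 for Krt27, -2.01 and 1.38 for Krt71 and -3.07 and 0.95 for Krt73. So did Tchh, with -0.58 and 2.96, but without the top 3 cells its ratio in cluster 0 was -0.11 with an interval of -0.61 to 0.37, and its Gli2EKO level there, 19.2 CPM, was close to the 19.0 CPM of the Gli2EKO immune, endothelial, fibroblast and melanocyte clusters. Krt28 did not, with -0.68 and -0.01. The ratios without the top 3 cells of the cluster were -1.20 and 0.38 for Krt25 and -1.34 and 0.23 for Krt71. The ratio of Krt73 in cluster 0 rests on 60 control UMIs, 39 of them in 1 cell, and 3 Gli2EKO UMIs, whose 0.978 CPM lay below the 6.46 CPM of the same other clusters. Krt71 in cluster 0 without the top 3 cells stood at 15.9 CPM in control and 6.30 in Gli2EKO, near the 13.9 and 7.10 CPM of those other clusters, and Krt73 in control at 2.20 CPM, below their 4.18. The cluster 0 side of Krt71, Krt73 and Tchh was thus at or near background. With 1 library per genotype this difference was not tested.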

How the results depend on the processing

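No paired analysis was possible because each genotype had 1 library. Of 277 alternative values, 187 stayed within the counting interval of the reported value or a set tolerance, 79 moved outside it and 11 changed sign. Of the 187, the Krt73 share ratio of 1.07 was 0.912 at 5000 UMIs and 0.891 without thinning, with intervals that held 1. The summed log2 ratio of the 7 genes, Gli2EKO over control, was 0.47 over all cells and -0.44 without the top 3 cells per gene, where Krt25 stood at -0.72, Krt27 at -0.15 and Krt71 at -0.80. It was 0.21 without marked doublets, 0.51 at a mitochondrial limit of 10% and 0.91 with no upper limit on detected genes. Without clusters 0, 7 and 9 it was -0.73, with Krt25 at -1.38, Krt27 at -0.45, Krt71 at -1.29, Krt72 at 0.50 and Tchh at -0.09. These last alternatives, on detected genes and clusters, and the one at 10 UMIs below were chosen after seeing the data. The ratio of shares of cells with a member, 0.663, was 0.747 without thinning and 0.538 at 10 UMIs, and the ratio for at least 3 members, 0.564, was 0.760 when 2 UMIs were required, with an interval of 0.508 to 1.12.

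In cells with at least 2 other members the summed log2 ratio of 1.28 was 0.35 without the top 3 cells, 1.03 without doublets, 1.31 at a mitochondrial limit of 10%, 1.42 at 5000 UMIs, 0.88 with at least 4 other members (where Krt73 stood at -0.02 and Krt28 at -1.07) and 1.30 with totals that left out the members. The share of member-positive cells with at least 2 members was 32.1% in control, 38.7% at 5000 UMIs and 45.1% at 2 UMIs, and 26.4% in Gli2EKO, 40.8% at 2 UMIs. The mean position along the other members, at which members first reached 50% of their highest CPM, was 85.7% of the axis in control and 69.4% when cells were ordered by the number of other members. Cluster 7 held 65.7% of control and 86.8% of Gli2EKO member UMIs with the members among the variable genes, 63.4% and 64.4% without integration, and 67.2% of control without doublets. The genes lower and higher past 1.5-fold, 1366 and 770, were 703 and 367 at 200 UMIs and 405 and 260 past 2-fold. The cause of these shifts was not tested. Depth limits Krt72, with 34 UMIs in the Gli2EKO library, and bins of about 20 cells.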
